A study of Homo sapiens with 12 samples.

Results

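The genes described here are 44 genes of DNA replication and of the G1/S transition, read by symbol from the polysome RNA of HEK293 cells that carried a STING plasmid or an empty vector. All 44 symbols are listed in both tables, among 23284 symbols for the first experiment and 12421 for the knockout experiment. By role they comprise 13 licensing genes, 7 of helicase activation and origin firing, 7 of the polymerases and primase, 6 of the sliding clamp and its loader, 3 of single-strand binding, 2 of Okazaki fragment processing, 3 of nucleotide supply and 3 regulators of the G1/S step.

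The study holds 12 libraries in 6 groups of 2. HEK293 is a human embryonic kidney line transformed with adenovirus DNA, whose E1A protein binds the retinoblastoma protein and frees E2F. The first experiment set cells transfected with 5 µg of a STING plasmid for 24 h beside cells given the same amount of empty vector. The knockout experiment repeated this with STING and vector in cells labelled as PERK knockouts and with STING and vector in wild-type HEK293 cells. STING, listed as TMEM173, is the adaptor of cytosolic DNA sensing, and PERK, listed as EIF2AK3, is an eIF2alpha kinase in the membrane of the endoplasmic reticulum. Ribosomes were arrested with cycloheximide, polysomes were collected from a sucrose gradient, and their polyadenylated RNA was amplified by Smart-seq2. How the knockout was made, and whether these cells are 1 clone, is not stated in the labels. Nothing in the labels tells whether both replicates of a group were grown separately, and the p-values therefore reflect library-to-library spread that may be technical.

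A replication origin is licensed in G1, when ORC, CDC6 and CDT1 load rings of MCM2 to MCM7 onto DNA. Geminin (GMNN) binds CDT1 and blocks further loading in S phase. CDC7 kinase, CDC45, MCM10 and GINS then turn the loaded ring into the active helicase, and polymerase alpha with primase, polymerases delta and epsilon, PCNA and RFC carry out synthesis. E2F1 and cyclin E drive the entry into S phase, and many of these genes are E2F targets.

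Levels are FPKM, sequenced fragments scaled to transcript length and library depth. TMEM173 checked the plasmid label, with 65157 and 69253 FPKM in STING libraries of the first experiment and 14.9 and 13.8 in vector libraries. In knockout cells it had 10512 and 7338 FPKM with STING and 23.5 and 43.8 with vector, and in wild-type cells 41812 and 40660 with STING and 23.1 and 36.7 with vector. STING was thus lower in the knockout than in the wild-type STING libraries, which touches every comparison of the responses of these lines. EIF2AK3 stood at or near the floor in all 8 libraries of the knockout experiment, so it could not check the knockout label. Of 8 HEK293 markers, VIM was the highest, at up to 75.1 FPKM in libraries of the first experiment and 319 in the others, and fibroblast markers were at most 0.276 FPKM in the first. Not all HEK293 markers were present, since only 4 of the 8 had a mean of at least 1 in the first experiment. NEFM was at 0 in all its libraries, PAX2 at most 0.154 FPKM and LHX1 at most 0.195. In the knockout experiment PAX2 was at most 1.47 FPKM, and LHX1 stood at or near the floor in all 8 libraries. The lowest to highest sum over a library was 9.15 to 13.8 FPKM for 8 haematopoietic markers and 1.41 to 8.97 FPKM for 6 hepatocyte markers in the first experiment. The knockout experiment had sums of 5.58 to 15.3 FPKM over the 3 listed haematopoietic markers and 4.00 to 13.0 over the 3 listed hepatocyte markers. PTPRC, CD3E and HBB, which define blood cells, were at 0 in all libraries of the first experiment. Of 4 tested HEK293 markers, 2 had a positive and 2 a negative change there. VIM was called higher, with 75.0 and 75.1 FPKM with STING and 47.5 and 44.9 with vector, and KRT8 was not called, with 8.34 and 8.66 FPKM with STING and 13.9 and 8.79 with vector. The hepatocyte marker APOA2 was called lower, listed at 0 in both STING libraries and at 4.25 and 2.34 FPKM with vector. The part of these markers in the members' values was not tested.

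The promoters of the genes called in the STING comparison are shown because MCM6 and MCM7 were higher and POLD2 was lower. Each is the 300-base RefSeq promoter of GRCh38.p14 around the start, on the minus strand, printed 5′ to 3′. MCM6 is chr2:135876394-135876693, the first listed MCM7 start is chr7:100101348-100101647, and POLD2 is chr7:44123499-44123798. Capitals mark E2F letters (TTTCCCGC, TTTCGCGC, TTTGCCGC or TTTGGCGC) and the NF-Y letters CCAAT, on either strand.
MCM6: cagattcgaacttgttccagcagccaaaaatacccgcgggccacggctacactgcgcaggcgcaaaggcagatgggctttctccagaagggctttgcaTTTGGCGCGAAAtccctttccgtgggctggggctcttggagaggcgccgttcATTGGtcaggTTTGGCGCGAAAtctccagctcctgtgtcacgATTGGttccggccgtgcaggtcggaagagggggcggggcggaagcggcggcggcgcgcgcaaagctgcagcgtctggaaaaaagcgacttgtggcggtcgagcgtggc
MCM7: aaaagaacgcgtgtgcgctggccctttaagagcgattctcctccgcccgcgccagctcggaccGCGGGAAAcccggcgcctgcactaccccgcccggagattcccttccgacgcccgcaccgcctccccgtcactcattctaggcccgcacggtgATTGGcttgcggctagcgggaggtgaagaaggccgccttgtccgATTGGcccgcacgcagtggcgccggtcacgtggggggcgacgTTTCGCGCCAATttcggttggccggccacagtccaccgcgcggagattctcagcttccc
POLD2: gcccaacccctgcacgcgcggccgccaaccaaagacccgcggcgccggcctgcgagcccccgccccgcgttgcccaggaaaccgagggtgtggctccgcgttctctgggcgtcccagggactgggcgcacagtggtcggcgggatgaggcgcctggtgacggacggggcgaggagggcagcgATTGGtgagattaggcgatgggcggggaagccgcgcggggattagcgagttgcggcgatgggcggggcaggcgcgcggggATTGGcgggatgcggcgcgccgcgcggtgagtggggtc
The E2F letters occurred 4 times in the MCM6 promoter, as 2 pairs that overlap head to head, and 2 times in that of MCM7, where 1 match overlaps a CCAAT. The 2 other RefSeq promoters of MCM7 held 0 E2F matches. The POLD2 promoter held none, and it held 2 CCAAT matches. RefSeq promoters were matched for 38 of the 44 genes (47 promoters), and 21 of the 47, or 44.7%, held E2F letters, against 3.31% of all 35116 promoters. MCM4, MCM5, GINS4, RPA2, RPA3 and CCNE2 were not matched. CCAAT was in 61.7% of the members' promoters and 34.6% of all, and the cell cycle homology letters TTTGAA or TTCGAA were in 4.26% and 16.4%. These matches describe letters and are not shown to be sites of binding.

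The members were mostly well expressed, and none stood at the floor of its table. Their mean level had a median percentile of 84.9 among listed symbols of the first table and 73.6 among those of the knockout table. POLD2, a small subunit of polymerase delta, was the highest in both tables, at a mean of 257 and 175 FPKM. POLE, the catalytic subunit of polymerase epsilon, was the lowest in the first, at 0.722 FPKM, and POLA1, the catalytic subunit of polymerase alpha, the lowest in the knockout experiment, at 2.71. Subunits of 1 complex differed in level, several of them in a fixed order. RPA3 exceeded RPA2 and RPA2 exceeded RPA1 in all 12 libraries, GINS2 was the highest and GINS4 the lowest of GINS in all 12, and RFC2 was the highest and RFC1 the lowest of RFC in all 12. Among MCM2 to MCM7, MCM7 was the highest in all 12. These are levels per length in polysome RNA, not amounts of protein.

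The first comparison asked how the polysome levels of these genes differed between STING and vector cells. The helicase genes MCM6 and MCM7 were higher with STING, and the polymerase delta subunit POLD2 and the single-strand binding subunit RPA3 were lower. On the log2(FPKM + 1) scale, limma with Benjamini-Hochberg adjustment over all symbols called 2 of 43 tested members higher and 2 lower, against 2.51% of 9464 symbols higher and 9.29% lower. POLE fell below the filter of a mean of 1, with 0.657 and 0.634 FPKM in STING and 0.524 and 1.07 in vector libraries. At an unadjusted p under 0.05 there were 7 members higher and 5 lower, or 16.3% and 11.6%, against 8.82% and 18.9% of all symbols. A larger share of cells in S phase and more RNA per cell cannot be told apart in these bulk libraries, nor can RNA amount and ribosome loading. Without that filter MCM6 and MCM7 were not called. The 4 calls were lost without either STING library. The call of MCM6 was lost also without either vector library, and that of MCM7 without vector library 2. Over all symbols, too, calls were fewer in each of these fits, which leave 1 library in a group. The median log2 change of the members was 0.16 and 0.18 without STING library 1 and 2 (all symbols −0.04 and −0.06). It was 0.07 and 0.30 without vector library 1 and 2 (all symbols −0.12 and 0.01).

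**Figure D1:**
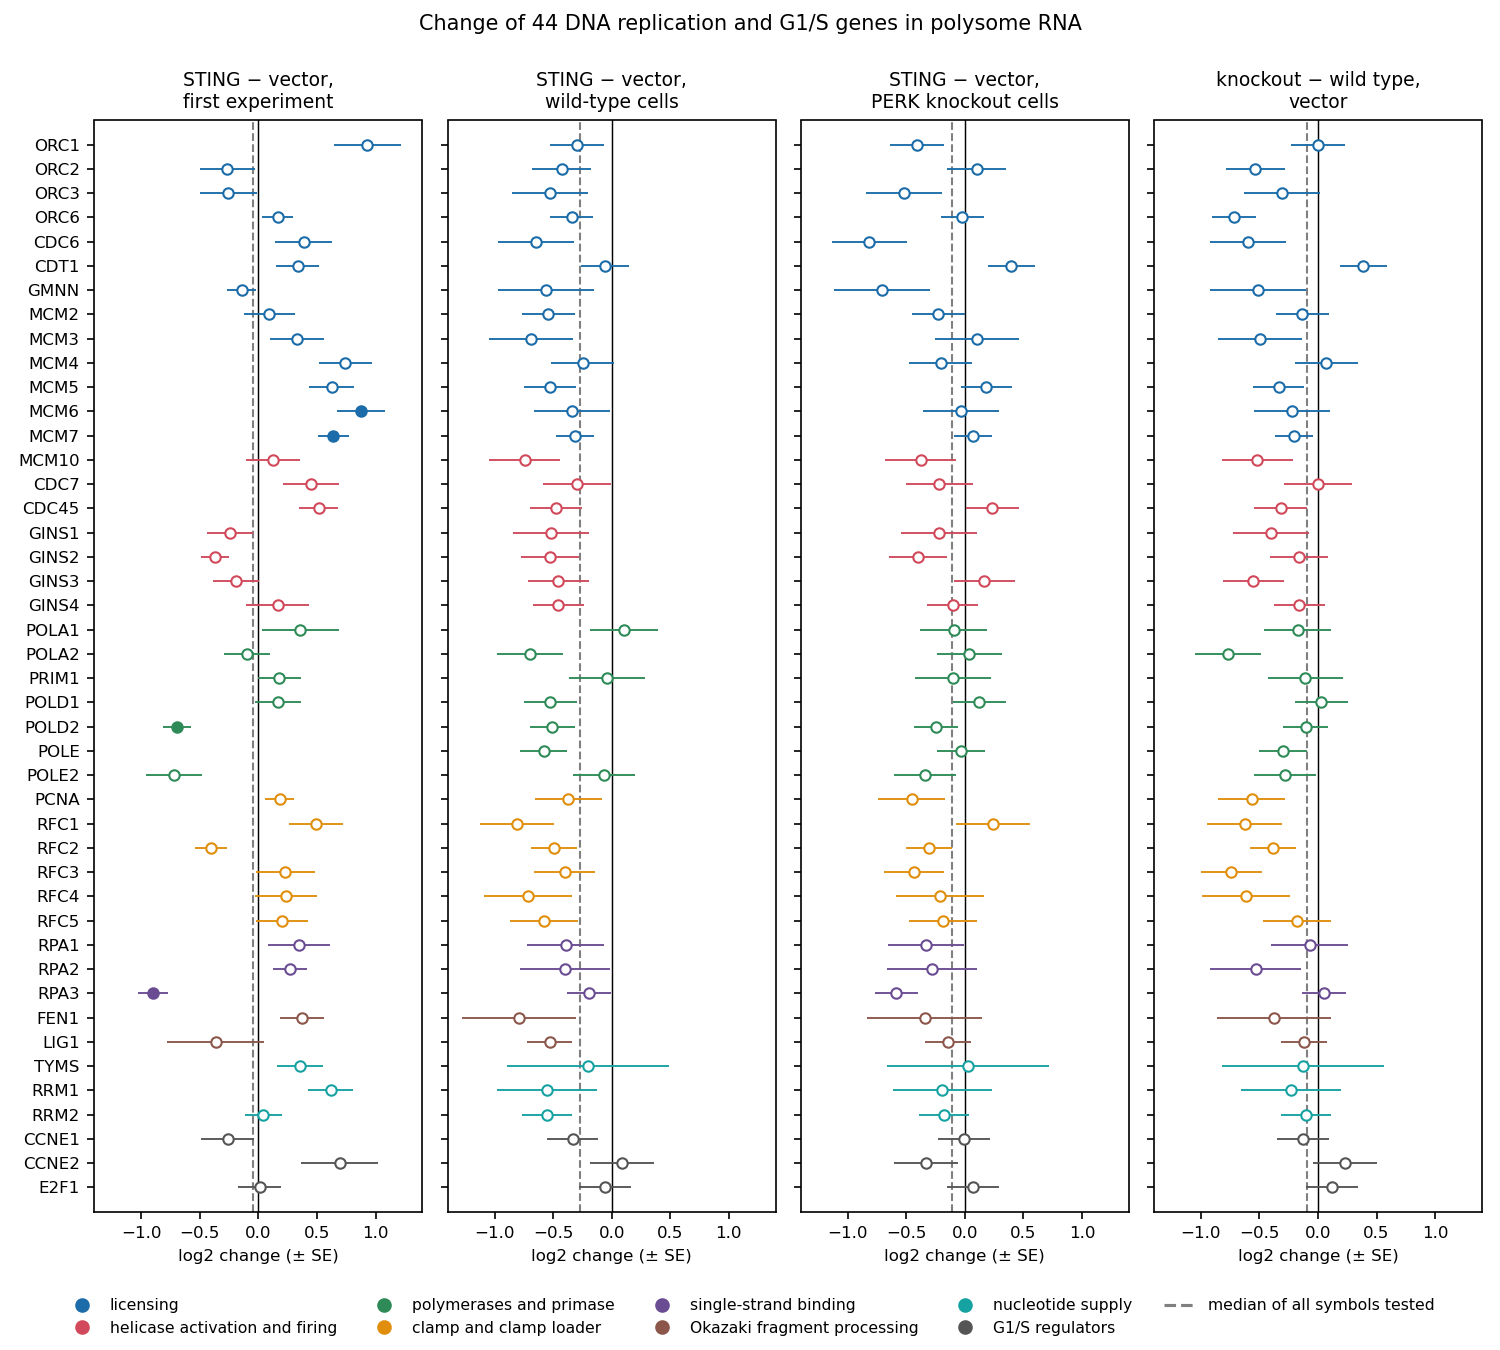
Log2 change of FPKM + 1 (points, with SE bars; filled where the adjusted p was under 0.05) of the 44 genes in 4 comparisons, coloured by role, with the median of all symbols tested as a dashed line. Of 43 tested genes 30 were above 0 in the first experiment, and of 44 genes 2 were above 0 in wild-type cells, where 16 were above 0 after median-of-ratios scaling or quantile normalization.

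Of the 13 licensing genes, 7 lay above vector in both STING libraries and 2 below it, or 53.8% and 15.4%, against 24.2% and 32.8% of all symbols. ORC1, an origin recognition ATPase, had 3.70 and 4.60 FPKM in STING and 2.33 and 1.18 in vector libraries (log2 change 0.93, SE 0.29, limma adjusted p = 0.0765). MCM6 had 10.5 and 10.3 FPKM with STING and 4.76 and 5.69 with vector (log2 change 0.88, SE 0.21, limma adjusted p = 0.0320). Both groups of MCM6 lay well apart, although it is the lowest MCM subunit in 11 of 12 libraries. MCM7 had 76.0 and 72.1 FPKM with STING and 48.1 and 46.3 with vector (log2 change 0.64, SE 0.13, limma adjusted p = 0.0212). MCM4 had 12.4 and 12.2 FPKM with STING and 5.73 and 8.37 with vector (log2 change 0.74, limma adjusted p = 0.0751). MCM5 had 29.5 and 35.4 FPKM with STING and 18.3 and 23.2 with vector (log2 change 0.63, limma adjusted p = 0.0743). The 4 MCM genes thus stood above vector in both STING libraries, but MCM4 and MCM5 missed the threshold. MCM2 and MCM3 overlapped between groups as deposited, MCM2 with 21.0 and 18.3 FPKM with STING and 15.2 and 22.1 with vector. After median-of-ratios scaling MCM3 lay above vector in both STING libraries, as did 28.5% of all symbols. In all, 7 members share exon sequence with another listed gene. On the opposite strand these are MCM7 (AP4M1), MCM2 (TPRA1), PRIM1 (HSD17B6), RFC4 (EIF4A2), TYMS (ENOSF1) and CCNE2 (INTS8). FEN1 shares it with FADS2 on the same strand. Whether counting used strand is not given in the sources used here.

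Summed over MCM2 to MCM7 the level was 162 and 158 FPKM in STING and 99.5 and 115 in vector libraries. The loading factors were less clear. CDC6, the ATPase that joins ORC to load the ring, had 9.64 and 7.03 FPKM with STING and 6.93 and 5.31 with vector (log2 change 0.39, limma adjusted p = 0.350). CDT1, its partner in loading, had 74.2 and 89.5 FPKM with STING and 54.9 and 75.4 with vector, and its groups overlapped as deposited. After median-of-ratios scaling CDT1 lay above vector in both STING libraries, as did 28.5% of all symbols. Geminin, the inhibitor of CDT1, had 77.2 and 79.7 FPKM with STING and 88.6 and 85.1 with vector (log2 change −0.14, limma adjusted p = 0.505). The ratio of CDT1 to GMNN was 0.960 and 1.12 with STING and 0.619 and 0.887 with vector, higher in both STING libraries.

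**Figure D2:**
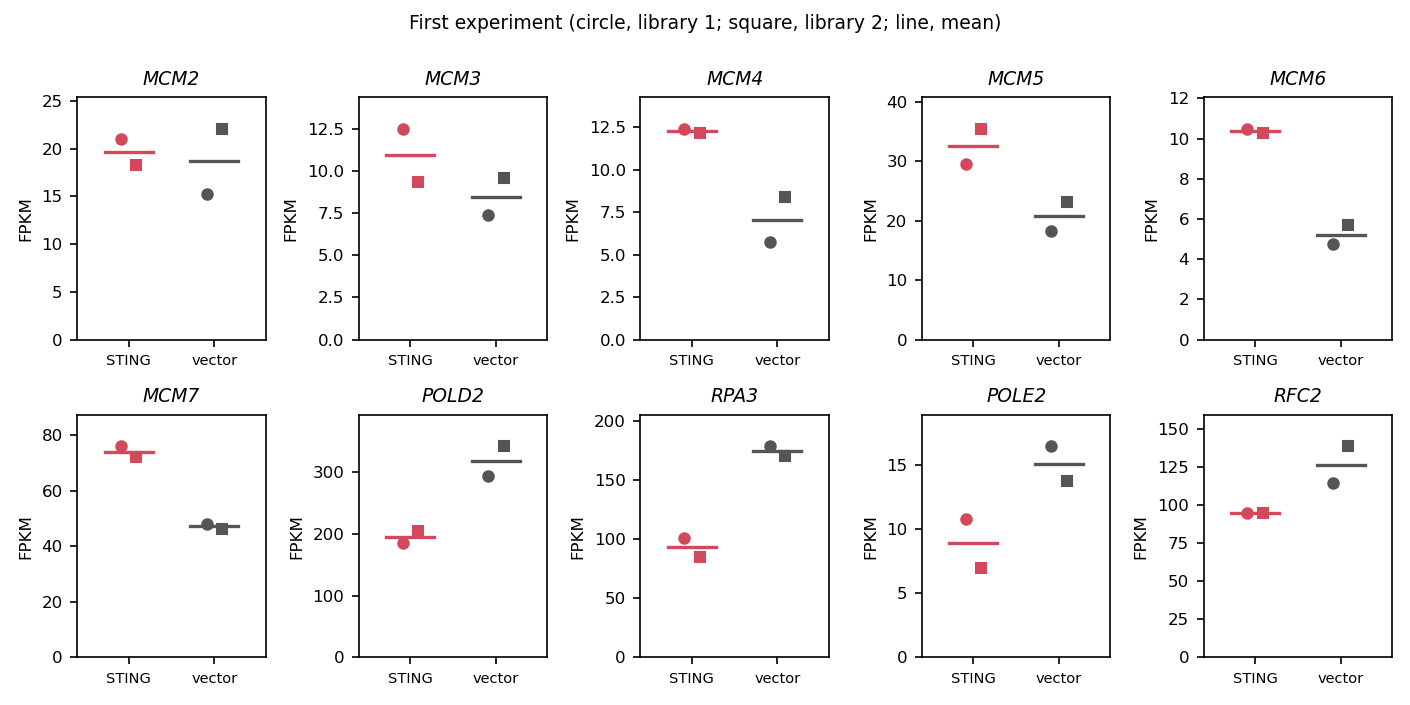
FPKM of MCM2 to MCM7 and of POLD2, RPA3, POLE2 and RFC2 in the first experiment, STING left of vector; each point is a library and the line is the mean. MCM4 to MCM7 lie above vector in both STING libraries, MCM2 and MCM3 overlap, and the last 4 genes lie below vector.

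Among the genes of helicase activation, CDC45 had 31.2 and 32.3 FPKM with STING and 20.1 and 23.9 with vector (log2 change 0.51, limma adjusted p = 0.0927). GINS2, a subunit of the ring that binds CDC45 and MCM, had 103 and 99.3 FPKM with STING and 124 and 138 with vector (log2 change −0.37, limma adjusted p = 0.0903). These partners in the active helicase lay on opposite sides of vector, and neither passed the threshold. The other 5 genes of this role had log2 changes between −0.24 and 0.45.

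The polymerase subunits POLD2 and POLE2 and the clamp loader subunit RFC2 were among the lower values. Their roles as a whole were not lower. Of 6 clamp and clamp loader genes 5 had a positive change and 1 a negative one. Of 6 tested polymerase and primase genes 3 were positive and 3 negative. POLD2 had 186 and 205 FPKM with STING and 293 and 342 with vector (log2 change −0.70, SE 0.12, limma adjusted p = 0.0108). POLE2, a subunit of polymerase epsilon, had 10.8 and 7.02 FPKM with STING and 16.5 and 13.8 with vector (log2 change −0.72, limma adjusted p = 0.0934). RFC2, a subunit of the clamp loader, had 94.9 and 94.9 FPKM with STING and 115 and 138 with vector (log2 change −0.40, limma adjusted p = 0.0928). All 3 lay below vector in both libraries, while only POLD2 passed the threshold, and its call was lost under quantile normalization (log2 change −0.30, limma adjusted p = 0.123). PCNA, the sliding clamp itself, had 118 and 112 FPKM with STING and 95.7 and 108 with vector (log2 change 0.18, limma adjusted p = 0.405). POLA1 overlapped between groups, with 1.92 and 1.23 FPKM with STING and 0.546 and 1.57 with vector. POLD2 and PCNA are among 8 members with a named pseudogene, so reads shared with copies could affect their levels.

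RPA binds the single strands that the helicase exposes. RPA3, its smallest subunit, had 101 and 85.5 FPKM with STING and 179 and 171 with vector (log2 change −0.90, SE 0.13, limma adjusted p = 0.00545). RPA1, its largest, had 3.85 and 3.90 FPKM with STING and 2.21 and 3.58 with vector (log2 change 0.35, limma adjusted p = 0.448). The ratio of RPA3 to RPA1 was 26.3 and 21.9 with STING and 80.9 and 47.7 with vector, so the subunits of this trimer did not move together. Ribonucleotide reductase makes the deoxynucleotides. Its large subunit RRM1 had 13.8 and 13.0 FPKM with STING and 8.04 and 8.76 with vector (log2 change 0.62, limma adjusted p = 0.0769). Its small subunit RRM2 had 33.8 and 38.3 FPKM with STING and 33.8 and 36.1 with vector (log2 change 0.04, limma adjusted p = 0.895). TYMS, which makes thymidylate, had 9.42 and 10.1 FPKM with STING and 7.67 and 7.09 with vector (log2 change 0.36, limma adjusted p = 0.287), and it overlaps exons of ENOSF1. RRM1 and TYMS lay above vector in both libraries and RRM2 did not.

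The regulators of S-phase entry gave no called change. E2F1 had 13.4 and 12.4 FPKM with STING and 13.3 and 12.3 with vector (log2 change 0.01, SE 0.18). Cyclin E1 (CCNE1) had 5.25 and 5.74 FPKM with STING and 7.71 and 5.97 with vector (log2 change −0.26, limma adjusted p = 0.501). Cyclin E2 (CCNE2) lay above vector, with 3.39 and 1.41 FPKM with STING and 1.02 and 1.00 with vector, but its STING libraries lay far apart. In all, 19 of 43 members lay above vector in both STING libraries and 9 below, or 44.2% and 20.9%, against 24.2% and 32.8% of all symbols. The median log2 change of the members was 0.18, against −0.05 over all symbols tested.

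The next comparison set STING beside vector in wild-type cells of the knockout experiment. None of the 44 members was called by limma in either direction, where 0.00816% of 12254 symbols (TMEM173 alone) were called higher and 0% lower. At an unadjusted p under 0.05 there were 0 members higher and 11 lower, or 25.0%, against 12.4% of all symbols lower. As deposited, 42 members had a negative change, but the median of all symbols was itself −0.27, and it moved to 0.05 under median-of-ratios scaling, where 28 members were negative and 16 positive. Relative to the median of all symbols, the median member was at −0.20 as deposited, −0.16 after that scaling and −0.11 after quantile normalization. In 1 member, CCNE2, both STING libraries lay above vector, and in 35 both lay below, against 3.31% and 52.3% of all symbols; after median-of-ratios scaling these counts were 5 and 14, against 30.0% and 16.7%.

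Among members with a mean of at least 5, the 4 lowest changes in wild-type cells fell in 4 roles. FEN1, the flap nuclease of Okazaki fragments, had 9.28 and 11.0 FPKM with STING and 14.4 and 23.2 with vector (log2 change −0.79, SE 0.49). MCM10, which helps to activate the helicase, had 3.38 and 4.96 FPKM with STING and 6.33 and 8.96 with vector (log2 change −0.74, SE 0.30). Neither was called, and the vector libraries of FEN1 differed more from each other than its STING libraries did. POLA2, the regulatory subunit of polymerase alpha, had 14.0 and 12.5 FPKM with STING and 21.1 and 23.2 with vector (log2 change −0.70, SE 0.28, limma adjusted p = 0.384). RFC4, a clamp loader subunit, had 18.9 and 20.8 FPKM with STING and 27.0 and 40.6 with vector (log2 change −0.71, SE 0.38). The groups of both stood apart at an adjusted p far from the threshold. FEN1 and RFC4 are among the members that share exon sequence with another gene, which could affect their levels. CDC6 had 6.52 and 5.39 FPKM with STING and 9.31 and 10.4 with vector (log2 change −0.65, limma adjusted p = 0.408).

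MCM7 had 74.2 and 78.5 FPKM with STING and 95.5 and 94.2 with vector in wild-type cells (log2 change −0.31, limma adjusted p = 0.415). MCM2 had 14.9 and 18.3 FPKM with STING and 22.3 and 26.9 with vector (log2 change −0.54, limma adjusted p = 0.387). The sum over MCM2 to MCM7 was 153 and 165 FPKM with STING and 204 and 223 with vector, lower in both STING libraries before any scaling. PCNA had 93.9 and 92.4 FPKM with STING and 121 and 121 with vector (log2 change −0.37, SE 0.29). RRM2 had 20.7 and 22.8 FPKM with STING and 29.2 and 35.9 with vector (log2 change −0.55, SE 0.21). GMNN had 63.9 and 67.0 FPKM with STING and 78.1 and 120 with vector (log2 change −0.56, SE 0.41). These 3 lay below vector in both libraries as deposited. CCNE1 had 9.22 and 9.38 FPKM with STING and 12.4 and 11.6 with vector (log2 change −0.33, SE 0.22). RPA1 had 3.21 and 3.23 FPKM with STING and 3.35 and 6.05 with vector (log2 change −0.39, SE 0.33), where vector library 2 sets the gap.

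POLA1 (log2 change 0.11, SE 0.29) and CCNE2 (log2 change 0.09, SE 0.27) were the 2 members with a positive change in wild-type cells. Among members with a mean of at least 5, the 4 highest changes were those of PRIM1, E2F1, CDT1 and POLE2, all slightly below 0. CDT1 had 64.6 and 62.3 FPKM with STING and 69.4 and 62.7 with vector (log2 change −0.06, SE 0.20), and E2F1 had 32.6 and 30.9 with STING and 36.7 and 29.8 with vector (log2 change −0.06, SE 0.22). The groups of both overlapped as deposited. PRIM1, the catalytic primase subunit, had 19.6 and 17.1 FPKM with STING and 14.8 and 24.0 with vector. POLE2 had 16.5 and 16.8 FPKM with STING and 14.5 and 21.0 with vector (log2 change −0.06, SE 0.26), and its groups overlapped as deposited. After median-of-ratios scaling CDT1, E2F1, POLE2, POLA1 and CCNE2 lay above vector in both STING libraries, as did 30.0% of all symbols. POLA1 had 3.12 and 3.22 FPKM with STING and 2.42 and 3.39 with vector, and TYMS had 6.52 and 11.1 with STING and 6.29 and 15.5 with vector. Library 2 of TYMS exceeded library 1 by 1.71 times with STING and 2.47 times with vector.

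**Figure D3:**
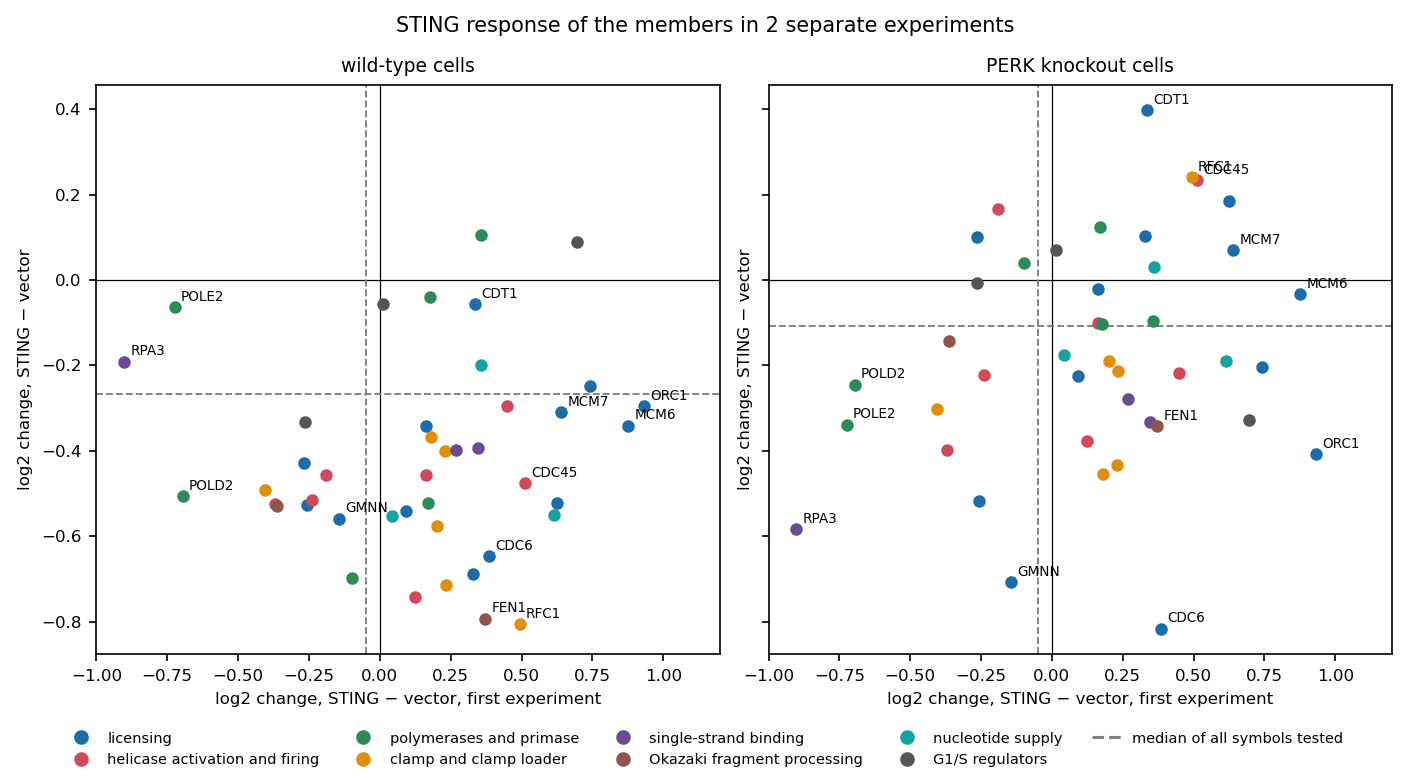
Log2 change with STING in wild-type cells (left) and PERK knockout cells (right) against that in the first experiment, 1 point per gene coloured by role; dashed lines mark the medians of all symbols tested. As deposited, 28 of 43 genes lie above 0 in the first experiment and below 0 in wild-type cells, where 16 of 44 lie above 0 after median-of-ratios scaling.

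Set side by side, the first experiment and the wild-type cells share no library. As deposited, 28 of 43 members (65.1%) were above 0 in the first and below 0 in wild-type cells, against 39.7% of 8808 symbols tested in both. In 15 members (ORC1, ORC6, CDC6, MCM4, MCM5, MCM7, MCM10, CDC7, CDC45, POLD1, PCNA, RFC1, RPA1, FEN1 and RRM1) both STING libraries lay above vector in the first experiment and both below in wild-type cells, against 13.5% of all symbols. After median-of-ratios scaling 5 members (MCM3, MCM5, MCM10, RFC1 and FEN1) stood this way round, against 4.10% of all symbols, and POLE2 stood the other way round, below vector in the first experiment, against 4.04%. The tables were made with different floors and were tested separately, so the difference itself was not tested. POLD2 was below vector in both experiments, with 140 and 148 FPKM in wild-type STING and 202 and 208 in wild-type vector libraries (log2 change −0.51, SE 0.19, limma adjusted p = 0.384). RPA3 was also below vector in both, with 138 and 119 FPKM with STING and 148 and 145 with vector in wild-type cells (log2 change −0.19, SE 0.19).

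In PERK knockout cells no member was called by limma, where 0.00816% of symbols (TMEM173) were called higher and 0% lower. CDC6 and RPA3 were the 2 members lower at an unadjusted p under 0.05, and 0 were higher, against 6.64% of all symbols lower and 1.06% higher. The median log2 change of the members was −0.19, against −0.11 over all symbols, with 12 members positive and 32 negative; after median-of-ratios scaling 21 were positive and 23 negative. Both STING libraries lay above vector in CDT1 and below it in ORC1, CDC6, POLE2, RPA3 and LIG1, against 5.66% and 21.9% of all symbols. These counts rest on single libraries: without knockout vector library 1 there were 2 above and 34 below, against 13.0% and 50.2% of all symbols in the same fit. Without knockout vector library 2 there were 16 above and 5 below, against 21.4% and 35.3%. Without knockout STING library 1 there were 5 above and 9 below, against 23.4% and 31.4%, and without knockout STING library 2 there were 6 above and 23 below, against 15.8% and 47.6%. The shares over all symbols thus moved with these libraries too.

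CDT1 had the highest change in knockout cells, and CDC6 and GMNN the lowest, none of them called. CDT1 had 118 and 111 FPKM with STING and 104 and 72.5 with vector (log2 change 0.40, SE 0.20, limma adjusted p = 0.716). GMNN had 29.9 and 56.1 FPKM with STING and 47.3 and 96.8 with vector (log2 change −0.71, SE 0.41, limma adjusted p = 0.746). CDC6 had 1.99 and 4.55 FPKM with STING and 5.15 and 7.36 with vector (log2 change −0.82, SE 0.32, limma adjusted p = 0.632). The GMNN groups overlapped, since library 2 was 1.88 times library 1 with STING and 2.05 times with vector. The ratio of CDT1 to GMNN was 3.94 and 1.98 in knockout STING, 2.19 and 0.749 in knockout vector, 1.01 and 0.930 in wild-type STING and 0.889 and 0.522 in wild-type vector libraries.

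RPA3 had 116 and 88.3 FPKM with STING and 154 and 150 with vector in knockout cells (log2 change −0.58, SE 0.19, limma adjusted p = 0.532). ORC3, an origin recognition subunit, had 5.57 and 10.8 FPKM with STING and 9.70 and 13.8 with vector (log2 change −0.52, SE 0.32). RPA3 was below vector in both STING libraries in each of the 3 STING comparisons as deposited, at log2 changes of −0.90, −0.19 and −0.58, and after median-of-ratios scaling only in the first experiment. CDC45 had 35.5 and 28.1 FPKM with STING and 22.9 and 31.1 with vector (log2 change 0.23, SE 0.22). MCM5 had 36.0 and 39.6 FPKM with STING and 27.2 and 40.4 with vector (log2 change 0.18, SE 0.22). GINS3 had 10.2 and 13.8 FPKM with STING and 8.41 and 13.0 with vector (log2 change 0.17, SE 0.26). The groups of these 3 overlapped as deposited. After median-of-ratios scaling all 3 lay above vector in both STING libraries, as did 15.3% of all symbols.

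The other genes described in knockout cells overlapped between STING and vector as deposited. MCM7 had 88.8 and 83.9 FPKM with STING and 77.0 and 87.8 with vector, and MCM2 had 20.2 and 17.6 with STING and 19.2 and 25.7 with vector. The sum over MCM2 to MCM7 was 181 and 192 FPKM with STING and 159 and 210 with vector. PCNA had 48.0 and 72.2 FPKM with STING and 61.9 and 106 with vector (log2 change −0.45, SE 0.29). The MCM sum and PCNA overlapped between groups. TYMS had 5.36 and 15.5 FPKM with STING and 4.48 and 17.4 with vector, and RRM2 had 23.1 and 30.3 with STING and 28.2 and 31.9 with vector. E2F1 had 42.2 and 33.8 FPKM with STING and 41.6 and 31.1 with vector, and CCNE1 had 13.0 and 8.99 with STING and 10.8 and 10.9 with vector. RPA1 had 2.31 and 4.30 FPKM with STING and 3.54 and 5.12 with vector, and POLA1 had 2.08 and 2.36 with STING and 1.62 and 3.51 with vector. In each of these genes the ranges of the groups crossed as deposited. After median-of-ratios scaling MCM7 lay above vector in both STING libraries, as did 15.3% of all symbols.

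**Figure D4:**
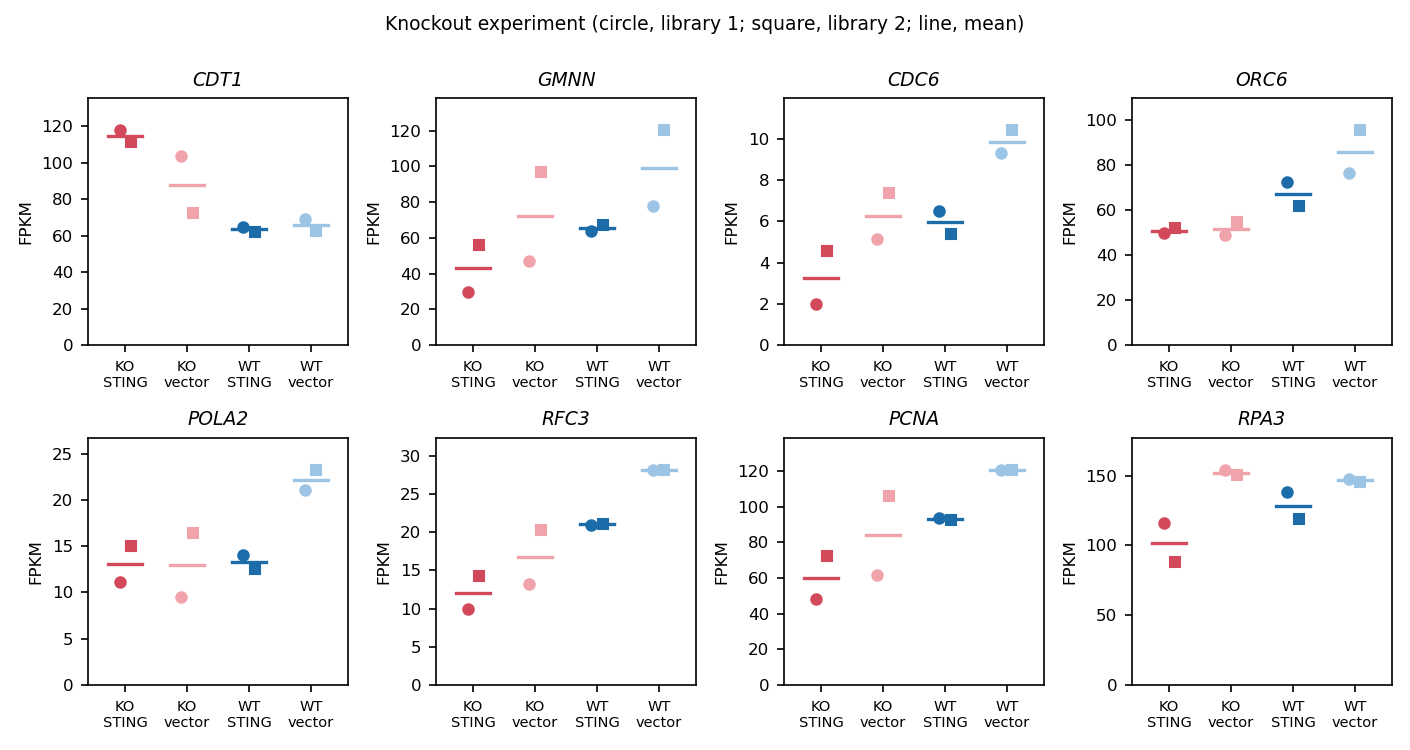
FPKM of CDT1, GMNN, CDC6, ORC6, POLA2, RFC3, PCNA and RPA3 in the 4 groups of the knockout experiment; KO is the PERK knockout and WT the wild type, each point is a library and the line is the mean. CDT1 lies higher and ORC6 lower in all knockout libraries than in wild-type ones, and GMNN and PCNA spread widely between the knockout libraries.

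A spread between libraries of the same group touches these results. Library 2 was above library 1 in 38 of 44 members in knockout vector (86.4%, against 59.3% of all symbols), with a median difference of 0.47 on the log2 scale against 0.11 over all symbols. The same held for 33 members (75.0%) in knockout STING, against 58.7% of all symbols, for 30 (68.2%) in wild-type STING, against 45.7%, and for 33 (75.0%) in wild-type vector libraries, against 58.3%. In the first experiment library 2 was above library 1 in 17 of 43 members (39.5%) in STING libraries, against 52.0% of all symbols, and in 28 (65.1%) in vector libraries, against 64.8%.

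The difference between the STING responses of knockout and wild-type cells was tested as an interaction, and no member was called, nor any of 12254 symbols (0% higher and 0% lower). At an unadjusted p under 0.05, 1 member was higher and 0 were lower, against 3.04% and 0.832% of all symbols. That member was RFC1, the large subunit of the clamp loader, at 1.05 (SE 0.45, limma adjusted p = 0.966). RFC1 had 3.24 and 4.11 FPKM in knockout STING and 1.89 and 4.38 in knockout vector libraries, and 2.83 and 2.16 in wild-type STING and 4.49 and 5.75 in wild-type vector libraries. Among members with a mean of at least 5, the highest differences were 0.79 (SE 0.51) for MCM3, 0.74 (SE 0.40) for POLA2, 0.71 (SE 0.32) for CDC45 and 0.71 (SE 0.31) for MCM5. MCM3 had 15.1 and 20.0 FPKM in knockout STING and 10.6 and 24.3 in knockout vector libraries, and 13.3 and 14.7 in wild-type STING and 20.6 and 25.9 in wild-type vector libraries. The wide gap between the knockout vector libraries of MCM3 enters its difference.

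CCNE2 had the lowest difference of all members, −0.42 (SE 0.39). Among members with a mean of at least 5, the lowest were −0.39 (SE 0.26) for RPA3, −0.28 (SE 0.37) for POLE2, −0.17 (SE 0.46) for CDC6 and −0.15 (SE 0.58) for GMNN, none larger than 2 SE. POLE2 had 8.82 and 13.6 FPKM in knockout STING and 14.2 and 14.1 in knockout vector libraries. The differences of the other fixed genes ranged from −0.20 (SE 0.41) for POLA1 to 0.45 (SE 0.29) for CDT1. The median difference was 0.31 over the members and 0.13 over all symbols, and relative to all symbols it was 0.18, and −0.06 without knockout vector library 1. STING itself was lower in knockout than in wild-type STING libraries (10512 and 7338 against 41812 and 40660 FPKM), and the part of this in the difference was not tested.

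The baseline comparison set vector-transfected knockout cells beside vector-transfected wild-type cells. No member was called by limma, where 0.0326% of 12254 symbols were called higher and 0.0163% lower. At an unadjusted p under 0.05, 0 members were higher and 3 lower, against 4.38% and 7.99% of all symbols. These were ORC6, POLA2 and RFC3. ORC6, the smallest origin recognition subunit, had 48.8 and 54.7 FPKM in knockout and 76.4 and 95.5 in wild-type vector libraries (log2 change −0.71, SE 0.19, limma adjusted p = 0.236). POLA2 had 9.50 and 16.4 FPKM in knockout and 21.1 and 23.2 in wild-type vector libraries (log2 change −0.77, SE 0.28, limma adjusted p = 0.337). RFC3, a clamp loader subunit, had 13.3 and 20.3 FPKM in knockout and 28.1 and 28.1 in wild-type vector libraries (log2 change −0.74, SE 0.26, limma adjusted p = 0.322). The groups of all 3 stood apart, and their change stayed negative under median-of-ratios scaling, at −0.54, −0.60 and −0.57.

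ORC6 with STING had 49.8 and 52.1 FPKM in knockout and 72.7 and 62.1 in wild-type STING libraries. RFC4 had 14.6 and 30.7 FPKM in knockout and 27.0 and 40.6 in wild-type vector libraries (log2 change −0.62, SE 0.38), and its groups overlapped. PCNA had 61.9 and 106 FPKM in knockout and 121 and 121 in wild-type vector libraries (log2 change −0.57, SE 0.29, limma adjusted p = 0.475). CDC6 had 5.15 and 7.36 FPKM in knockout and 9.31 and 10.4 in wild-type vector libraries (log2 change −0.60, SE 0.32, limma adjusted p = 0.498). PCNA and CDC6 lay below wild type in both knockout libraries, although the 2 knockout libraries differed. At the other end, CDT1 had 104 and 72.5 FPKM in knockout and 69.4 and 62.7 in wild-type vector libraries (log2 change 0.39, SE 0.20, limma adjusted p = 0.487). RPA3 had 154 and 150 FPKM in knockout and 148 and 145 in wild-type vector libraries (log2 change 0.05, SE 0.19). Both lay above wild type, RPA3 by a small margin.

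MCM4 had 19.8 and 20.7 FPKM in knockout and 17.6 and 21.0 in wild-type vector libraries (log2 change 0.07, SE 0.27), and E2F1 had 41.6 and 31.1 in knockout and 36.7 and 29.8 in wild-type (log2 change 0.12, SE 0.22). The groups of these 2 overlapped as deposited. After median-of-ratios scaling MCM4 lay above wild type in both knockout libraries, as did 21.1% of all symbols. MCM7 had 77.0 and 87.8 FPKM in knockout and 95.5 and 94.2 in wild-type vector libraries (log2 change −0.20, SE 0.16). The log2 changes of the fixed genes MCM2, GMNN, RPA1, POLA1, TYMS, RRM2 and CCNE1 lay between −0.51 (GMNN, SE 0.41) and −0.07 (RPA1, SE 0.33). Over all members the median was −0.23 against −0.09 over all symbols, with 8 positive and 36 negative, and after median-of-ratios scaling 17 were positive and 27 negative. Both knockout libraries lay above wild type in 2 members and below in 14, against 12.5% and 25.8% of all symbols. The median log2 change of the members was −0.54 without knockout vector library 2 (all symbols −0.16). It was −0.43 without wild-type vector library 1 (all symbols −0.15) and −0.12 without wild-type vector library 2 (all symbols −0.03). Without knockout vector library 1 it was −0.02, the same as over all symbols (−0.02), so the shift rests on that library. Beside these values, KRT8, one of the HEK293 markers, was called higher in knockout cells, with 54.7 and 65.2 FPKM against 15.6 and 18.6 in wild-type vector libraries. Both knockout libraries lay above wild type in 3 of the 8 markers on that list (KRT8, VIM and NEFL), against 12.5% of all symbols. GATA3 was the 1 marker of the list with a negative change. It was not called and had 1.08 and 1.98 FPKM in knockout and 2.86 and 4.50 in wild-type vector libraries. The relation of these markers to the members' values was not tested.

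Across the members the STING change can also be set against transcript length, taken as the median length of coding transcripts in GENCODE. In the first experiment Pearson's r with log2 length was 0.40 and Spearman's rho 0.25 over 43 members, and rho was 0.26 over 8143 symbols with a length. Without RPA3, the shortest at 640.5 bases, r was 0.28 over 42 members. In knockout cells rho was 0.32 over 44 members and 0.17 over 11328 symbols, and in wild-type cells −0.22 over the members and −0.002108 over all. In the first experiment 5 of 7 members under 1500 bases, 12 of 19 from 1500 to 3000 bases and 13 of 17 over 3000 bases had a positive change, with medians of 0.18, 0.16 and 0.33 (all symbols of these classes, −0.27, −0.02 and 0.08). Members of like length differed, since MCM6 (3736 bases) and ORC1 (3118.5) were high while LIG1 (3281.5) was at −0.36 and GINS1 (3249) at −0.24. Members share their libraries, and FPKM is itself divided by length, so these are descriptions.

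**Figure D5:**
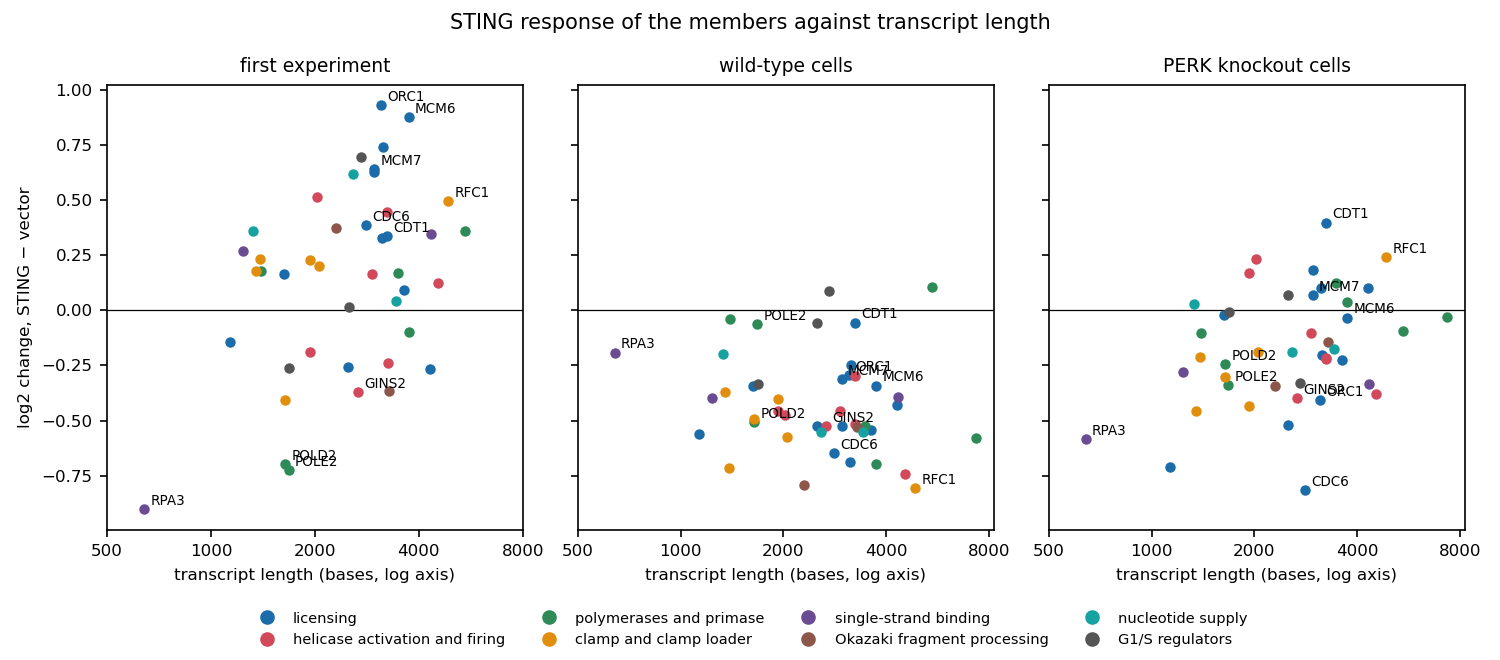
Log2 change with STING against transcript length in bases (log axis) in the first experiment, wild-type cells and PERK knockout cells, 1 point per gene coloured by role. RPA3, the shortest, is the lowest in the first experiment (−0.90) and MCM6 lies among the highest (0.88); in wild-type cells most genes lie below 0 as deposited, with 16 of 44 above 0 after median-of-ratios scaling.

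Other lists of the cell cycle were described in the first experiment by their counts, against the same 2.51% and 9.29% of all symbols. Of 34 tested genes of the replication fork and chromatin assembly, UHRF1, which guides maintenance methylation, was higher, with 2.80 and 2.88 FPKM with STING and 0.928 and 0.683 with vector (limma adjusted p = 0.0294). RNASEH2A and RNASEH2C, subunits of the nuclease that removes ribonucleotides from DNA, were lower. RNASEH2C had 59.4 and 60.9 FPKM with STING and 112 and 114 with vector (limma adjusted p = 0.00487). Of 17 other nucleotide supply genes, IMPDH2, which acts in guanine nucleotide synthesis, was higher and NME1, a nucleoside diphosphate kinase, was lower. IMPDH2 had 141 and 137 FPKM with STING and 88.8 and 88.9 with vector (limma adjusted p = 0.0122).

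Of 33 genes of G1/S control, CDKN1B (p27) and CDKN1C (p57), inhibitors of cyclin-dependent kinases, were higher, and CDK4, the cyclin D kinase, and SKP2, which targets p27 for degradation, were lower. CDKN1B had 5.88 and 5.70 FPKM with STING and 2.33 and 2.43 with vector (log2 change 1.01, limma adjusted p = 0.0267). CDKN1C had 2.09 and 2.49 FPKM with STING and was listed at 0 and 0.608 with vector. CDK4 had 209 and 223 FPKM with STING and 289 and 329 with vector (log2 change −0.51, limma adjusted p = 0.0276), and SKP2 had 25.2 and 27.3 with STING and 37.9 and 47.3 with vector (log2 change −0.67, limma adjusted p = 0.0440). All 4 separated STING from vector. Of 34 mitosis genes, PRC1 was higher and UBE2C lower. The median log2 change was 0.06 for the fork list, 0.04 for nucleotide supply, 0.25 for G1/S control and 0.04 for mitosis, beside 0.18 for the members and −0.05 for all symbols. In the knockout experiment 0 genes of these lists were called by limma in any of its 4 comparisons; in wild-type cells 5 of 41 fork genes, 2 of 18 nucleotide supply genes, 3 of 35 G1/S control genes and 6 of 37 mitosis genes were lower at an unadjusted p under 0.05, near the 12.4% of all symbols. In knockout cells 3 fork, 2 nucleotide supply, 1 G1/S control and 1 mitosis gene were lower at that p, against 6.64% of all symbols. At baseline 4 fork, 0 nucleotide supply, 3 G1/S control and 3 mitosis genes were lower, against 7.99%, and 2 G1/S control genes and 1 mitosis gene were higher, against 4.38%.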

How the data were processed

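Polysome RNA of 12 libraries in 6 groups of 2 was measured. The authors deposited FPKM values (fragments scaled by transcript length and library depth); the submitters' processing notes name Cufflinks 2.2.1, TopHat2 2.1.1 and hg19. The deposited table of the knockout experiment does not name its unit, and its values, none under 1, were taken as floored FPKM. The files give no counts, so absolute depth is unknown. The most common ratio between libraries among low values gave relative depths. These were 0.886 to 1 of vector library 1 in the first experiment and 0.821 to 1.29 of wild-type vector library 1 in the knockout experiment. In the knockout experiment the most common ratio was shared by only 31 to 79 of 670 to 844 symbols, so these depths are rough.

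Groups and replicate numbers came from the titles. Symbols with a mean of at least 1 that varied were tested on log2(FPKM + 1) with limma 3.58.1 (R 4.3.3; trend and robust moderation, two-sided, Benjamini-Hochberg over all symbols, threshold 0.05), 9464 in the first and 12254 in the knockout table, whose 8 libraries share 1 spread estimate. A fold change on this scale understates that of low genes. The fits were tested on simulated data. Genes given by library are the called members, the 4 highest and 4 lowest of each comparison with a mean of at least 5, and 12 fixed genes, with any other gene named after its values were seen. Members and lists were chosen with earlier results of these data known. Alternatives were pseudocounts of 0.1 and 5, no filter or a mean of at least 5, median-of-ratios scaling, quantile normalization, no trend, a replicate block, 4 libraries alone and leaving out each library. RefSeq promoters are on GRCh38.p14, and their coordinates are not those of the files' build.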

Additional observations from a re-analysis of the deposited data

Results flagged for a closer look

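In 15 members both STING libraries lay above vector in the first experiment and both lay below vector in wild-type cells of the knockout experiment. The difference was not tested, since the tables were made and tested separately. Over all symbols tested in both tables the share was 13.5%. In 0 members the groups stood the other way round, against 0.511% of all symbols. After median-of-ratios scaling 5 members stood this way round, against 4.10% of all symbols, and POLE2 the other way round, against 4.04%.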

How the results depend on the processing

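In the first experiment 4 members were called. The count was 2 without a filter, 7 under median-of-ratios scaling (adding CDC45, MCM4 and MCM5), 5 under quantile normalization, 0 with no trend and no robust moderation, and 0 to 3 over the fits that left out a library. Among all symbols of the first experiment the called share was 11.8% in the main fit, 3.63% without a filter and 0.18% with no trend. It was 10.4% under median-of-ratios scaling and 8.21% under quantile normalization. In the 4 other comparisons 0 members were called under any alternative run. Of the values of named genes under all alternatives, 1382 kept their side of the threshold, 7 passed it newly, 18 lost it and 0 called values reversed. Most of the 1382 belong to genes not called in the main fit, so they say little of how stable a call is. The 18 lost values all belong to the 4 members called in the first experiment, each run under 12 alternatives. Changes of sign in values not called were not counted here. Such changes occurred, as for PRIM1 in wild-type cells, whose log2 change ranged from −0.37 to 0.33. The replicate numbers were not shown to pair libraries: same-numbered deviations correlated at 0.0741 in the first experiment and at 0.0421 to 0.528 in the knockout experiment. With the replicate number as a block, 8 of 43 members were called in the first experiment, against 16.8% of all symbols under the block, and 0 in the others. Over all symbols the first experiment gave 1117 calls, 580 without a filter, 17 with no trend, and 42, 38 and 686 without STING library 1, STING library 2 and vector library 2. At baseline the 6 calls became 53 under median-of-ratios scaling and 105 with the block.

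Counts of members whose groups did not overlap were recomputed under settings chosen after seeing the data. After median-of-ratios scaling 20 were above and 6 below in the first experiment (all symbols 28.5% and 29.6%), 5 and 14 in wild-type cells (30.0% and 16.7%), 8 and 3 in knockout cells (15.3% and 12.3%), and 4 and 12 at baseline (21.1% and 17.8%). Leaving out a library gave 21 to 30 above and 10 to 14 below in the first experiment (all symbols 30.4% to 40.6% and 39.3% to 49.0%), 1 to 5 and 36 to 41 in wild-type cells (8.01% to 9.75% and 61.2% to 70.0%), 2 to 16 and 5 to 34 in knockout cells (13.0% to 23.4% and 31.4% to 50.2%), and 3 to 7 and 14 to 37 at baseline (19.5% to 28.3% and 33.9% to 50.6%). The cause was not tested; a comparison with fewer libraries separates groups more easily. Scaling by spike-in was not run, because 0 spike-in rows were in the table used. Groups of 2 and the unknown depth limit what can be called.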

Other observations

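In the knockout experiment 18 of 44 members (40.9%) were higher in library 2 than in library 1 in all 4 groups, against 21.2% of 12254 symbols, and 4 members (CDT1, POLD1, RPA3 and E2F1) were lower in all 4, or 9.09% against 7.10%. The 18 include GMNN, MCM3, MCM4, MCM6, GINS1, GINS2, FEN1, TYMS, RRM1 and RRM2. TYMS in library 2 was 2.89 times library 1 in knockout STING, 3.89 times in knockout vector, 1.71 times in wild-type STING and 2.47 times in wild-type vector. For CDT1 these ratios were 0.943, 0.701, 0.965 and 0.903.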
